A study of Capra hircus with 8 samples.

Results

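The desmosomal cadherins are the desmogleins (DSG1, DSG2, DSG3 and DSG4) and the desmocollins (DSC1, DSC2 and DSC3), and they are described here together with corneodesmosin (CDSN). The members were chosen by gene symbol: 8 symbols were looked up in the symbol column of a table of raw read counts that lists 18815 genes from goat skin. Of these, 7 were found, and all 7 passed the filter on low counts, which left 14085 genes for testing. No row of that table carried the symbol DSC2. A second count table of 20780 genes, built on another gene set, names DSC2 and lacks CDSN, and it is used for DSC2 alone and as a check on the others. Cashmere goats (Capra hircus), kept for a fine undercoat, were set against milk goats. Skin of each breed was sampled at 3, 6, 9 and 12 months, which gave 4 libraries a breed. No treatment, genotype or sex is given, and every sample is labelled as skin. The month stands in the age label, whereas the design text names only months, so months of life and months of the year cannot be told apart. Nothing says how many animals stand behind a library, so the p-values measure only the spread between these libraries, which may be technical.

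Desmosomes are the rivets that hold keratinocytes together. The extracellular parts of desmogleins and desmocollins bind each other across the gap between cells, and their tails bind plakoglobin and plakophilins, which desmoplakin ties to the keratin filaments. In human and mouse skin the members are layered: DSG3 and DSC3 prevail in the lower layers, DSG1 and DSC1 in the upper layers, DSG2 and DSC2 are the widely expressed forms of simple epithelia and heart, and DSG4 is strongest in the forming hair shaft. Loss of DSG4 gives fragile, beaded or lance-shaped hair in humans, mice and rats. Corneodesmosin is secreted onto the outermost desmosomes and the inner root sheath, and its cleavage by kallikrein proteases lets surface cells shed.

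Library totals were 7480053 to 8718429 reads in cashmere goats and 11333734 to 13899750 reads in milk goats. Levels within a gene are given in CPM (reads scaled to a common depth with TMM factors), and a count of 0 would have allowed up to 3 reads, or 0.231 to 0.395 CPM. Levels between genes are given in the authors' FPKM, which is per kilobase. The skin label was checked against lists of marker genes: 6 of 7 basal keratinocyte markers were found and summed to 14783 to 18030 CPM in cashmere goats and 12299 to 19504 CPM in milk goats, and no marker of any list was at 0 reads in any library. The month 12 milk library stood apart. Its 7 hair shaft markers summed to 66.6 CPM, against 230 to 2266 CPM in the other milk libraries, and its 6 suprabasal markers summed to 46231 CPM, against 22277 to 25294 CPM there. Breed estimates of the 7 members that it moves by over 1.5 times, and Pearson correlations over the libraries, are given with and without it, save for the r of some single marker genes.

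Per length, DSG1 was the leading cadherin in every library, in FPKM of the genes of the first table. In CPM of the second table, which are not per length, DSC1 lay above DSG1 in some libraries and below it in others. DSG1 averaged 113 ± 32.2 FPKM over the 8 libraries (SD), DSC3 72.3 ± 15.5, DSC1 63.8 ± 12.0, DSG4 22.2 ± 14.5, DSG3 18.4 ± 4.46 and DSG2 9.70 ± 2.12 FPKM. CDSN, which is no cadherin, averaged 129 ± 70.3 FPKM. The order was steady at some steps only: DSG1 lay above DSC3 in 8 of 8 libraries, DSC1 above DSG4 in 8 of 8 and DSG3 above DSG2 in 8 of 8. DSC3 and DSC1 were closer, with DSC3 higher in 7 of 8 libraries and means that differ by less than either SD. CDSN and DSG1 did not separate (CDSN higher in 4 of 8), nor did DSG4 and DSG3 (DSG4 higher in 5 of 8). The rank of DSG4 moved between libraries: it was the fourth of the 6 measured cadherins in all 4 cashmere libraries and in milk goats at month 9, the fifth in milk goats at month 6 and the last in milk goats at months 3 and 12.

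DSG4 (gene23067), the hair-type desmoglein, had 115, 196, 272 and 227 CPM in cashmere skin of months 3, 6, 9 and 12. The milk libraries had 22.2, 136, 228 and 6.69 CPM at the same months, the last from 76 reads against 1724 in the cashmere library of that month. Both breeds had their highest level at month 9, and the month 3 and 12 milk libraries lay below all others, while the ranges of the breeds overlapped. Between its highest and lowest month the spread of DSG4 was 2.37-fold in cashmere and 34.1-fold in milk goats. Among the genes detected in all 4 milk libraries, 0.576% had a range as wide or wider in that breed, and 12.4% of those detected in all 4 cashmere libraries did so in cashmere goats. For the median gene that spread was 1.46-fold in cashmere and 1.69-fold in milk goats.

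**Figure D1:**
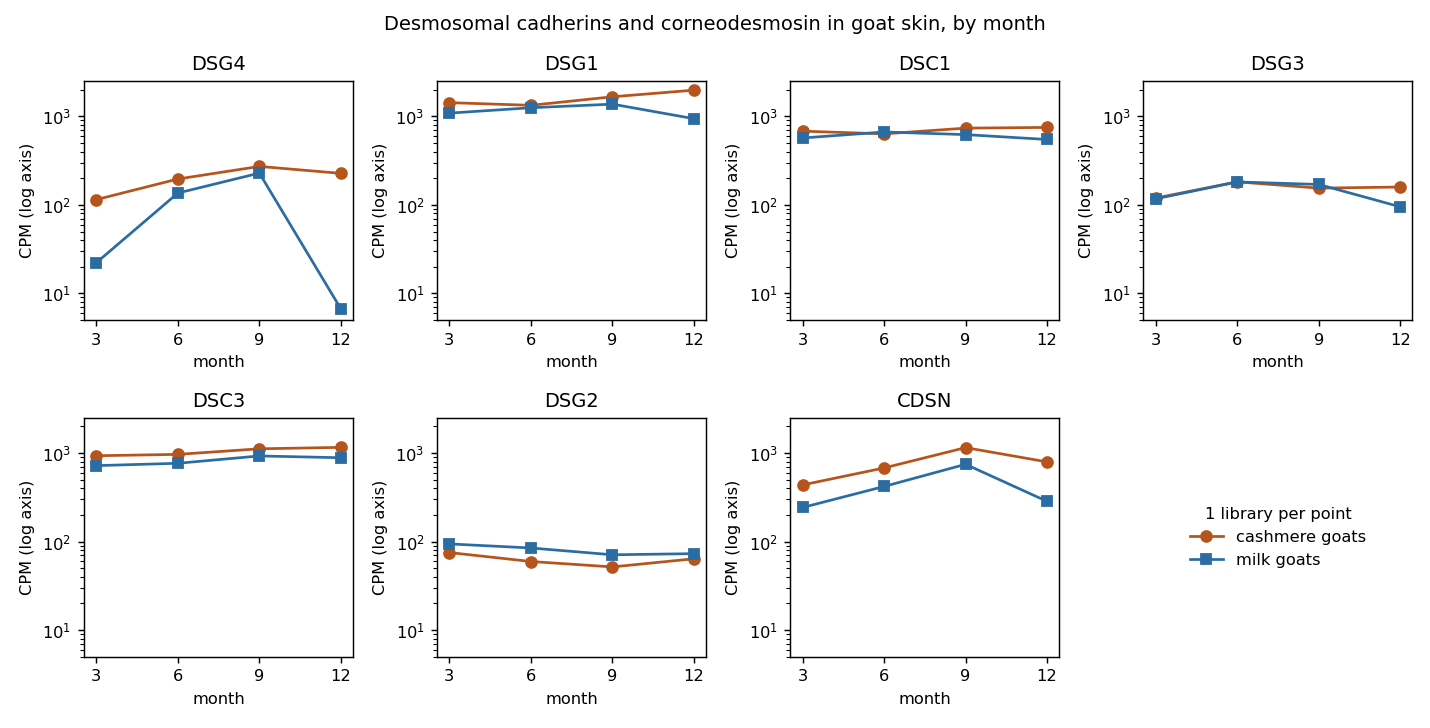
CPM (TMM-scaled, log axis) of the 7 members found in the first count table against month, with 1 library per point, cashmere goats as circles and milk goats as squares. DSG4 lies at 22.2 and 6.69 CPM in milk goats at months 3 and 12, while DSG1, DSC1 and DSC3 stay within 2.10-fold over all 8 libraries.

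Within single months the breed ratio of DSG4 was set by 1 library against 1, with exact (Clopper-Pearson) 95% intervals that cover counting error only. At month 12 DSG4 was 33.9-fold as high in the cashmere library as in the milk library (log2 ratio 5.08, 4.75 to 5.43), and at month 3 it was 5.16-fold as high (2.37, 2.17 to 2.57). The ratio was 1.44-fold at month 6 (0.53, 0.43 to 0.63) and 1.19-fold at month 9 (0.25, 0.17 to 0.33). In CPM the breeds thus lay close at months 6 and 9 and apart at months 3 and 12, all 4 ratios pointing to cashmere goats. The month 9 milk library had the lowest TMM factor, 0.783 against 0.989 to 1.13 in the others, which raises its CPM. At month 9 DSG4 had 42.6 FPKM in the cashmere library and 26.1 FPKM in the milk library. Of the 7 members, 3 were at least 2-fold higher in cashmere goats at month 12 (DSG4, CDSN and DSG1), beside 10.1% of all tested genes, and DSG4 alone at month 3, beside 4.42%. At months 6 and 9 no member reached 2-fold in CPM, beside 2.74% and 5.98% of genes. In FPKM CDSN was above 2-fold at month 9, at 266 in the cashmere library and 126 in the milk library. No member was at least 2-fold lower in CPM in any month. Of all genes, 3.40% were so at month 3, 3.40% at month 6, 6.53% at month 9 and 11.5% at month 12.

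**Figure D2:**
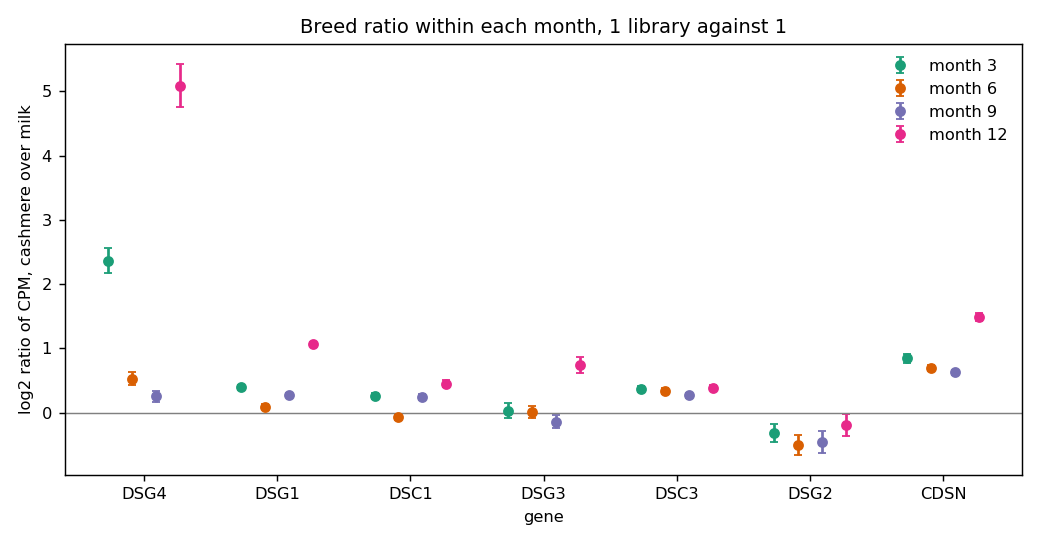
Log2 ratio of CPM, cashmere over milk goats, for each member and month from 1 library against 1, with bars for the exact 95% counting interval. DSG4 stands at 5.08 at month 12 and 2.37 at month 3, the other members between -0.51 and 1.48.

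Across the 4 months, the breeds were compared with edgeR's quasi-likelihood test in a model of breed and month, adjusted by Benjamini-Hochberg over all genes. DSG4 averaged 202 ± 66.2 CPM in cashmere goats and 98.3 ± 104 CPM in milk goats (SD, n = 4 each), with a log2 fold change of 1.87 ± 0.78 (SE) and an adjusted p of 0.178. It was higher in cashmere goats in 4 of 4 months and did not pass the threshold of 0.05. The log2 fold change was 0.98 (adjusted p = 0.168) with the month 12 milk library left out and 1.002 (adjusted p = 0.145) with the month 12 cashmere library left out, so its size rests on that month. Over 18 alternative settings it lay between 0.98 and 2.56, with adjusted p between 0.0684 and 0.489. Of the 7 members 1, CDSN, passed, beside 4.79% of all tested genes, and 3 of 7 (DSG2, DSG4 and CDSN) had an unadjusted p under 0.05, beside 26.9% of all genes. Members' median log2 fold change was 0.34 with 6 of 7 positive, and the median of all genes was 0.03. Scaling by library totals moved that median of all genes to 0.14, and log2 FPKM with a pseudocount of 0.1 moved it to 0.23, but no member changed sign between breeds under any scaling run.

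Whether the course over the months differed between breeds was tested with both interaction terms of breed and a 12-month cycle, in a model with 2 residual degrees of freedom. DSG4 had an unadjusted p of 0.00355 and an adjusted p of 0.443 in edgeR's quasi-likelihood test. It was the only member of 7 with an unadjusted p under 0.05, beside 6.42% of all genes, and 0 genes passed after adjustment (904 at an unadjusted p under 0.05, 79 with DESeq2, 0 with limma on log2 FPKM). With all 18815 genes kept in the fit, DSG4 passed (adjusted p = 0.0180) together with 117 others, and over the 8 alternatives its adjusted p lay between 0.0180 and 0.759.

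The genes most like DSG4 over the 8 libraries, by Pearson's r of log2 CPM among 10794 candidates, included 3 keratins of the hair follicle. They were HEPHL1, a copper-dependent ferroxidase whose loss gives abnormal hair in humans (r = 0.998), KRT35, a keratin of the hair cortex and cuticle (r = 0.997), LRRC15 (r = 0.996), and KRT27 (r = 0.996) and KRT74 (r = 0.995), keratins of the inner root sheath. Spearman's rho was 0.881 to 1 for these 5. Over the 7 libraries without the month 12 milk library their r was 0.986 to 0.995. The libraries share month and breed, and the coefficients describe likeness only. KRT35 had 351, 678, 882 and 693 CPM at months 3, 6, 9 and 12 in cashmere skin and 75.7, 363, 709 and 28.8 CPM in milk goats. In FPKM, DSG4 stood at 0.175 to 0.198 of KRT35 in cashmere goats and at 0.141 to 0.227 in milk goats. That ratio therefore moved 1.61-fold over the 8 libraries, while DSG4 itself moved 47.8-fold in FPKM. KRT35 was picked for its likeness, so a steady ratio is what that choice gives.

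Transcription factors that act on DSG4 or on the hair matrix in human and mouse were listed beside it. FOXN1, the factor lost in nude mice, had 143, 233, 391 and 289 CPM in cashmere goats and 38.5, 195, 396 and 30.0 CPM in milk goats at months 3, 6, 9 and 12. MSX2, a homeobox factor of the hair matrix, averaged 141 ± 44.8 CPM in cashmere goats and 93.8 ± 75.6 CPM in milk goats (SD, n = 4 each), counted on the better covered of its 2 rows. HOXC13, needed for hair keratins, averaged 135 ± 48.3 and 54.3 ± 46.8 CPM in cashmere and milk goats, and LEF1, the nuclear partner of beta-catenin, 86.2 ± 22.5 and 55.4 ± 46.9 CPM; both were named after their values were seen. All 4 had their lowest level in the month 12 milk library. None of the 4 passed between breeds (log2 fold changes 0.93 to 1.74, edgeR adjusted p 0.0706 to 0.213), and their r with DSG4 was 0.973 to 0.987 (0.964 to 0.986 over the other 7 libraries). In FPKM the ratio of DSG4 to FOXN1 moved 3.75-fold over the libraries, to HOXC13 3.36-fold and to LEF1 4.91-fold.

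**Figure D3:**
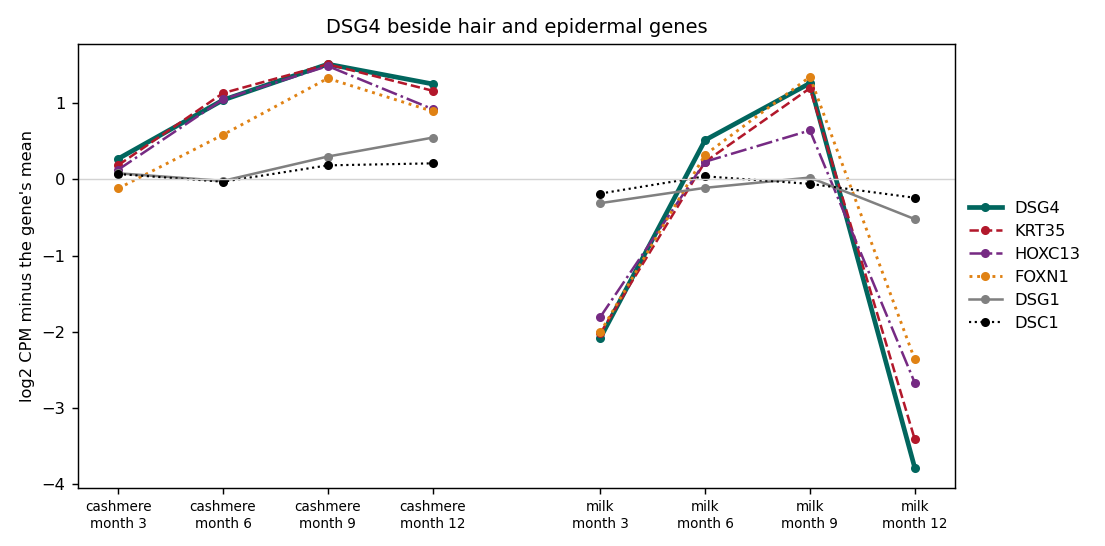
Log2 CPM minus each gene's mean over the 8 libraries, by breed and month, with 1 library per point. DSG4 (thick line), the cortex keratin KRT35 and the factors HOXC13 and FOXN1 lie lowest in the month 3 and 12 milk libraries, where DSG1 and DSC1 stay within 1 log2 unit of their means.

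Over all 8 libraries, the marker lists with the highest r to DSG4 were those of the hair follicle. Hair shaft markers (7 of 15 listed symbols found) summed to 758, 1934, 1914 and 1496 CPM at months 3, 6, 9 and 12 in cashmere skin and to 230, 1351, 2266 and 66.6 CPM in milk goats. Inner root sheath markers (5 of 9 found) summed to 21920 to 73254 CPM in cashmere goats and 2909 to 173432 CPM in milk goats. The r of log2 values with DSG4 was 0.989 for the shaft sum and 0.940 for the sheath sum, and 0.970 and 0.852 without the month 12 milk library. TCHH, at a mean of 51484 CPM, made up most of the sheath sum. Its own r was 0.932, and the sheath keratins found had 0.968 to 0.996 over the 8 libraries. Without the month 12 milk library KRT27 stood at 0.989 and KRT74 at 0.986. Without that library the basal keratinocyte sum also stood at 0.946, against 0.305 with it. The genes of the basal list disagreed over the 8 libraries. COL17A1 had an r of -0.801 with DSG4 and ITGB4 -0.705, and the other basal genes found had 0.459 to 0.799. The shaft sum had an r of 0.915 with DSG3, 0.827 with CDSN, 0.763 with DSG1, 0.744 with DSC1, 0.464 with DSC3 and -0.494 with DSG2. Without the month 12 milk library these were 0.832, 0.868, 0.555, 0.548, 0.646 and -0.736. The suprabasal sum had an r of -0.815 with DSG4 (-0.418 without that library) and the muscle sum -0.785 (-0.754). The suprabasal genes disagreed as well over the 8 libraries. KRT1, KRT10, LOR and SBSN had an r of -0.882, -0.876, -0.912 and -0.512 with DSG4, but IVL had 0.915 and KRT2 0.246. KRT1 and KRT10, at means of 9114 and 8481 CPM, made up most of that sum. In bulk skin, fewer cells of a type and less RNA per cell cannot be told apart, and the part of these cells in the level of DSG4 was not tested.

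The upper-layer pair differed in range: over the 8 libraries DSG1 spanned 2.10-fold and DSC1 1.37-fold in CPM. In the second table these spans were 3.17-fold and 1.59-fold. DSG1 (gene23068), the main desmoglein of the upper epidermis and the target of autoantibodies in pemphigus foliaceus, had 1426, 1330, 1661 and 1973 CPM in cashmere goats and 1086, 1249, 1371 and 939 CPM in milk goats at months 3, 6, 9 and 12. DSG1 was higher in cashmere goats in 4 of 4 months, by 1.07-fold (month 6) to 2.10-fold (month 12), and the ranges overlapped. The log2 fold change was 0.46 ± 0.23 (SE; edgeR adjusted p = 0.238). It was 0.23 (adjusted p = 0.523) with the month 12 milk library left out and 0.25 (adjusted p = 0.444) with the month 12 cashmere library left out. In the second table DSG1 was higher in cashmere goats in 2 of 4 months, at 0.932-fold, 0.869-fold, 1.01-fold and 3.17-fold over months 3 to 12. DSC1 (gene23070), the desmocollin of the upper layers, had 679, 633, 735 and 749 CPM in cashmere goats and 568, 665, 621 and 547 CPM in milk goats. Its libraries spanned 1.37-fold in all, with cashmere goats higher in 3 of 4 months (0.22 ± 0.17, edgeR adjusted p = 0.439). That value was 0.12 (adjusted p = 0.701) without the month 12 milk library, 0.14 (adjusted p = 0.627) without the month 12 cashmere library and 0.02 (adjusted p = 0.965) in the second table, where cashmere goats were higher in 2 of 4 months. In FPKM, DSG1 stood at 1.74 to 2.19 times DSC1 in cashmere goats and at 1.43 to 1.83 times in milk goats. That ratio moved 1.54-fold over the 8 libraries and was higher in cashmere goats in every month of the first table. The second table went the other way at month 3. There DSG1 and DSC1 had 538 and 558 CPM in cashmere goats, and 578 and 550 CPM in milk goats. The r of log2 CPM between DSG1 and DSC1 was 0.942 over 8 libraries and 0.908 without the month 12 milk library. The genes most like DSG1 were TEX2 (r = 0.974), EDRF1 (0.973) and AMIGO2 (0.972), and those most like DSC1 were PLAGL1 (0.980), again EDRF1 (0.976) and SCYL2 (0.963), all at 0.945 to 0.989 without that library.

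A keratin of the same layers had another course. KRT1, the suprabasal partner of KRT10, had 21090 CPM in the month 12 milk library and 4652 to 9008 CPM in the other 7, whereas DSG1 and DSC1 both had their lowest level in that library. The 6 suprabasal markers found of 8 listed summed to 14295 to 22043 CPM in cashmere goats and 22277 to 46231 CPM in milk goats. Their sum had an r of -0.779 with DSG1 and -0.788 with DSC1 over the 8 libraries, and -0.598 and -0.664 without the month 12 milk library. Their part in the levels of DSG1 and DSC1 was not tested. IVL, involucrin of the cornified envelope, is 1 of these 6 markers and went against their sum. It had 2435 CPM in milk goats at month 9 and 96.3 CPM at month 12. Its r with DSG4 was 0.915 (0.901 without the month 12 milk library).

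Neither lower-layer member passed between breeds, and their courses differed in shape. DSC3 (gene23072), the basal desmocollin, had 931, 965, 1115 and 1157 CPM in cashmere goats and 720, 765, 926 and 884 CPM in milk goats at months 3, 6, 9 and 12. In the first table it was the only member whose breeds did not overlap in CPM, with every cashmere library above every milk library, beside 6.46% of all genes that did the same and 8.02% that were lower without overlap. In FPKM, DSG1 and DSC3 did not overlap, both higher in cashmere goats, beside 17.1% of genes higher and 3.53% lower without overlap. The CPM ratio of DSC3 within a month was 1.205-fold to 1.31-fold. In the second table the breeds overlapped (480 to 687 CPM in cashmere goats, 345 to 587 CPM in milk goats) and that ratio was 1.01-fold to 1.99-fold. In the first table the log2 fold change of 0.34 ± 0.17 did not pass (edgeR adjusted p = 0.237). With limma on log2(FPKM + 1) it passed at 0.55 (adjusted p = 0.0397), on a scale where the median of all genes was 0.16, and over 18 alternatives the adjusted p was 0.0397 to 0.566. The genes most like DSC3 were CKS1B, a small subunit of cell cycle kinases (r = 0.971), TRAPPC13 (0.970) and MLF1 (0.968), at 0.970 to 0.975 without the month 12 milk library.

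DSG3 (gene23065), the lower-layer desmoglein and target of autoantibodies in pemphigus vulgaris, had 119, 182, 154 and 159 CPM in cashmere goats and 117, 181, 170 and 95.0 CPM in milk goats at months 3, 6, 9 and 12. The CPM ratio of cashmere over milk was 1.02-fold, 1.002-fold and 0.908-fold in the first 3 months sampled, and 1.67-fold at month 12. In FPKM DSG3 was higher in cashmere goats in 4 of 4 months, with 20.5 against 16.5 FPKM at month 9. The log2 fold change was 0.16 ± 0.18 (edgeR adjusted p = 0.599). With 1 month 12 library left out it stood at -0.04 (adjusted p = 0.873, cashmere library left out) and -0.06 (adjusted p = 0.796, milk library left out). In the second table DSG3 was higher in cashmere goats at month 12 (2.08-fold) and in no other month. The genes most like DSG3 were PADI4, a protein deiminase, GPAT3, an acyltransferase of lipid synthesis, and EMP1, an epithelial membrane protein, at r = 0.973 to 0.976 (0.9501 to 0.959 without the month 12 milk library).

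DSG2 (gene23062), the desmoglein of simple epithelia, was the only member with a negative breed estimate. It had 75.1, 59.5, 51.7 and 63.9 CPM in cashmere goats and 94.0, 84.6, 70.9 and 73.0 CPM in milk goats at months 3, 6, 9 and 12. In CPM the cashmere goat value was below the milk goat value in 4 of 4 months, at 0.703 to 0.875 of it, and the ranges overlapped at 70.9 to 75.1 CPM. In FPKM it was higher in 1 of 4 months, with 8.94 against 8.90 FPKM at month 12. In the second table it was lower in all 4 months, at 0.767 to 0.974 of the milk goat value. The log2 fold change there was -0.24 ± 0.13 (edgeR adjusted p = 0.270). In the first table the log2 fold change was -0.37 ± 0.12 (SE, edgeR unadjusted p = 0.0170, adjusted p = 0.112), and -0.14 with limma on log2(FPKM + 1) (adjusted p = 0.465). Markers of simple and glandular epithelium (5 of 5 found) summed to 840 to 997 CPM in cashmere goats and 673 to 915 CPM in milk goats. Muscle markers (4 of 4 found) summed to 775 to 1593 CPM in cashmere goats and 1621 to 2585 CPM in milk goats, and endothelial markers (5 of 5) to 219 to 552 and 213 to 706 CPM. In the muscle sum MYH11 averaged 1235 CPM and DES 397 CPM. ACTA1 and CKM averaged 5.18 and 1.22 CPM and did not pass the filter on low counts. DSG2 had an r of 0.833 with the muscle sum, 0.677 with the endothelial sum and -0.523 with the simple epithelial sum (0.915, 0.679 and -0.558 without the month 12 milk library), and the part of these cells in its level was not tested. FGF7, a keratinocyte growth factor of the dermis, was among the 3 genes most like DSG2 (r = 0.970), beside NAPB (0.980) and PHLDB1 (0.976), at 0.970 to 0.981 without that library.

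DSC2, the widely expressed desmocollin, was measured in the second count table. It had 84.4, 178, 134 and 153 CPM of that table in cashmere goats and 50.7, 175, 158 and 35.8 CPM in milk goats at months 3, 6, 9 and 12. At month 12 it was 4.26-fold as high in the cashmere library (log2 ratio 2.09, exact 95% interval 1.97 to 2.21), and the ratios of months 3, 6 and 9 were 1.66-fold, 1.02-fold and 0.846-fold. The breed effect in that table was 0.63 ± 0.35 (edgeR adjusted p = 0.274), where 7.45% of 14994 genes passed. Its r within that table was 0.937 with DSG4, 0.916 with DSG3, 0.759 with DSC3, 0.706 with DSC1, 0.683 with DSG1 and -0.457 with DSG2. Without the month 12 milk library these were 0.872, 0.825, 0.509, 0.355, 0.254 and -0.694. The first table holds an unnamed gene, LOC102184211, that the RefSeq annotation of assembly ARS1.2 places between DSC1 and DSC3. It had 88.4, 197, 153 and 163 CPM in cashmere goats and 53.7, 186, 190 and 43.1 CPM in milk goats at the same months, with an r of 0.996 to DSC2 of the second table, with or without the month 12 milk library. No source used here gives the 2 rows 1 name, and LOC102184211 is not counted as a member.

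In that annotation the 6 named cadherins lie on chromosome 24 in the order DSG2, DSG3, DSG4, DSG1, DSC1 and DSC3, and the second table puts its 7 on that chromosome too. DSG4 thus lies between DSG3 and DSG1, and over the 4 milk libraries DSG4 spanned 34.1-fold, DSG3 1.91-fold and DSG1 1.46-fold. A non-coding gene, LOC108633787, overlaps DSG4 and a protein-coding gene, LOC108633772, overlaps DSG2 there. How reads in such overlaps were counted is not given in the sources used here. DSG4 agreed closely between the 2 count tables (r = 0.9997 over 8 libraries). DSG2 and DSG3 did so less closely (0.959 and 0.948), and DSG1, DSC3 and DSC1 least (0.864, 0.688 and 0.624). Without the month 12 milk library DSG4 had 0.999, DSG2 0.966, DSG3 0.911, DSC3 0.882, DSG1 0.780 and DSC1 0.318. In the second table DSG1 had 299 CPM in milk goats at month 12 against 578 to 660 CPM in that breed's other months, a wider gap than in the first table. DSC3 and DSC1 of the second table likewise had their lowest milk goat level at month 12, at 345 and 417 CPM, whereas DSC3 of the first table did not.

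The make-up of the measured cadherin pool was compared as shares of the summed FPKM of the 6 cadherins of the first table. DSG4 took 5.71%, 9.50%, 11.2% and 8.70% of the cashmere pool at months 3, 6, 9 and 12, and 1.42%, 7.17%, 10.9% and 0.449% in milk goats. DSG1 took 35.5% to 41.6% in cashmere goats and 34.5% to 38.3% in milk goats, and DSC1 19.0% to 22.4% and 19.7% to 24.2%. DSC3 took 23.3% to 24.5% in cashmere goats and 21.2% to 31.0% in milk goats, the last at month 12. DSG3 took 5.03% to 7.46% and 5.37% to 8.09%, and DSG2 1.95% to 3.44% and 3.12% to 5.55%. The shares of DSG2 and of DSG3 were lower in cashmere than in milk goats in 4 of 4 months, with overlapping ranges. The whole pool summed to 321 to 397 FPKM in cashmere goats and 198 to 285 FPKM in milk goats. FPKM ran higher in cashmere goats for genes at large: 17.1% of all tested genes were higher without overlap and 3.53% lower.

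Set against the epidermal and basal members together (DSG1, DSG3, DSC1 and DSC3), DSG4 stood at 6.29%, 10.8%, 12.8% and 9.77% of their summed FPKM in cashmere skin of months 3, 6, 9 and 12. For milk goats it stood at 1.53%, 8.08%, 12.7% and 0.472%. The log2 difference between breeds of this ratio averaged 1.71 ± 1.98 over the 4 months (SD, n = 4), an SD larger than the mean. With each other member as the denominator in turn the mean lay between 1.14 (CDSN) and 2.43 (DSG2). The breeds lay closest at month 9, at 12.8% in cashmere and 12.7% in milk goats.

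**Figure D4:**
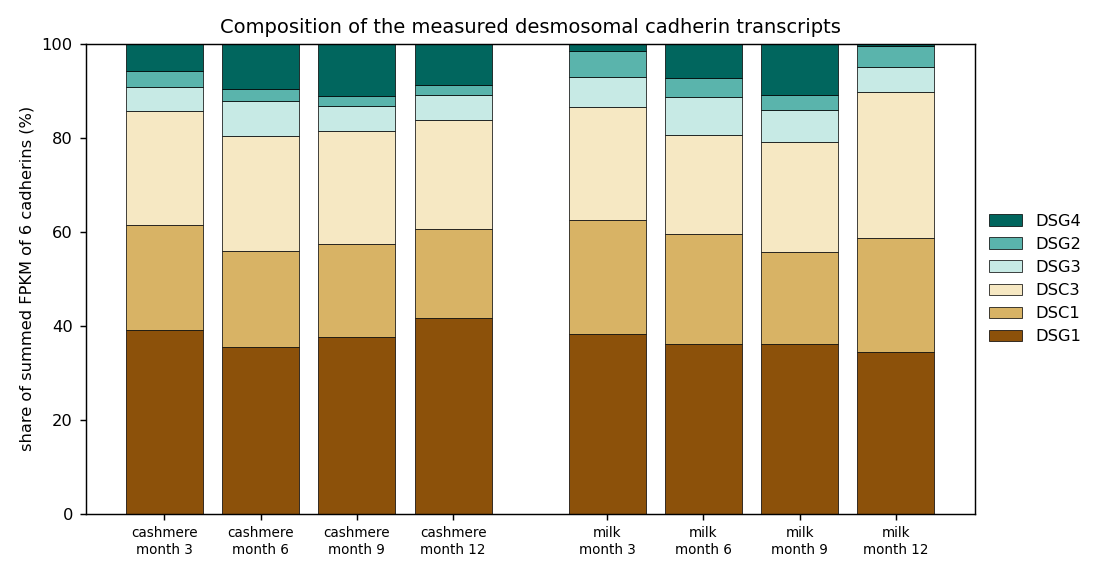
Share of each of the 6 measured cadherins in their summed FPKM (%), per library, cashmere goats left and milk goats right. The DSG4 segment at the top runs from 5.71% to 11.2% in cashmere goats and from 0.449% to 10.9% in milk goats, while DSG1, DSC1 and DSC3 fill most of every bar.

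CDSN (gene22521), corneodesmosin, was the only member that passed the breed test. It had 436, 678, 1150 and 793 CPM in cashmere goats and 242, 419, 745 and 284 CPM in milk goats at months 3, 6, 9 and 12. Both breeds had their highest value at month 9 and their lowest at month 3, and the ranges overlapped. Within a month CDSN was 1.54-fold (month 9) to 2.79-fold (month 12) as high in cashmere goats. It rose by 0.91 ± 0.20 on the log2 scale, or 1.88-fold (SE; edgeR adjusted p = 0.0496, higher in 4 of 4 months), a direction in which 1.47% of all genes passed, while 3.32% passed lower. The call is narrow: 6 of 17 alternatives kept it, with adjusted p from 0.000219 (DESeq2) to 0.240 (no month term). It ended with RLE factors (adjusted p = 0.0539), with scaling without hair genes (0.0568) and with a mean of at least 5 CPM (0.0519). It also ended without any 1 library other than the month 12 cashmere library (adjusted p 0.0642 to 0.178 in those 7 fits, with log2 fold changes of 0.70 to 1.02).

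Proteases that cut corneodesmosin were in the same list as their inhibitors. Of 9 symbols 6 were found and tested, all 6 had positive breed log2 fold changes (median 0.44), and 2 passed, both higher in cashmere goats, beside 1.47% of all genes called in that direction. KLK7, the chymotrypsin-like enzyme of the horny layer, averaged 387 ± 131 CPM in cashmere goats and 165 ± 103 CPM in milk goats (SD, n = 4 each; log2 fold change 1.38 ± 0.26 SE, edgeR adjusted p = 0.0379). KLK5, the trypsin-like enzyme that starts the cascade, averaged 75.0 ± 29.2 and 35.0 ± 9.62 CPM in cashmere and milk goats (1.06 ± 0.16, edgeR adjusted p = 0.0276). With 1 library left out each call held in 2 of 8 fits, those without a month 12 library, and with no month term both calls ended (adjusted p = 0.143 for KLK7 and 0.0837 for KLK5). Over 17 alternatives the adjusted p of KLK7 was 1.47e-05 to 0.143, and over 18 that of KLK5 was 9.62e-06 to 0.114. In FPKM, CDSN stood at 1.17 to 1.53 times KLK7 in cashmere goats and at 1.45 to 2.89 times in milk goats. The 3 genes most like CDSN were PITHD1 (r = 0.993), CHMP4C (0.990) and PPIF (0.988), at 0.987 to 0.991 without the month 12 milk library. The r of CDSN was -0.872 with the muscle sum, -0.861 with the endothelial sum and 0.625 with the basal keratinocyte sum (-0.836, -0.879 and 0.898 without that library), and their part in its level was not tested.

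Over both breeds, month 9 was set against month 3 and month 12 against month 6 in the same fit. With all 8 libraries, no member passed either comparison or the test of all months, and 0% of all tested genes passed each in edgeR's quasi-likelihood test. The numbers at an unadjusted p under 0.05 were 1894 genes for all months, 3329 for month 9 against month 3 and 1071 for month 12 against month 6, and DESeq2 called 536, 1107 and 94. In edgeR's test of all months CDSN had an adjusted p of 0.324 and was alone among the members in having an unadjusted p under 0.05 (0.00517), beside 13.4% of all genes. DESeq2 called CDSN in that test (adjusted p = 0.000137), and without the month 12 cashmere library edgeR called CDSN (0.0255) and DSG4 (0.0285). Over all alternatives that adjusted p ran to 0.840 for CDSN and 0.873 for DSG4. CDSN stood at 1.52 ± 0.29 (log2, month 9 against month 3; unadjusted p = 0.000944, edgeR adjusted p = 0.108), DSG4 at 2.49 ± 1.02 (adjusted p = 0.199) and DSG2 at -0.47 ± 0.17 (adjusted p = 0.160). These 3 of 7 members had an unadjusted p under 0.05, beside 23.6% of all genes. When either month 12 library is left out the other no longer adds to the residual, and DSG4 passed at 2.19 in both fits (edgeR adjusted p = 0.0300 with the cashmere one left out, 0.0340 with the milk one left out). Without the month 9 milk library DSG4 stood at 1.12 (adjusted p = 0.758), and without the month 9 cashmere library at 3.45 (adjusted p = 0.152). Over 16 alternatives it stood at 1.12 to 3.45, with adjusted p of 0.0300 to 0.758. CDSN likewise passed at 1.51 in both (adjusted p = 0.0130 and 0.0171), against a range of 2.08e-05 to 0.573 over 16 alternatives.

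For month 12 against month 6, DSG4 stood at -1.44 ± 1.06 (edgeR adjusted p = 0.790), a mean over breeds of unlike values: the cashmere libraries had 227 CPM at month 12 and 196 CPM at month 6, and the milk libraries 6.69 and 136 CPM. With the month 12 cashmere library left out it was -4.13 (adjusted p = 0.0363), and -0.05 (adjusted p = 0.987) with the milk one left out. DSG3 stood at -0.54 ± 0.25 (adjusted p = 0.679) and the other 5 members between -0.14 and 0.24, none with an unadjusted p under 0.05, beside 7.60% of all genes.

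The intracellular plaque, on which these cadherins are anchored, was followed as a list of 9 genes, all found and tested. None passed between breeds or months; the median breed log2 fold change was 0.12 with 6 of 9 positive. JUP, plakoglobin, which binds the tails of all desmosomal cadherins, averaged 695 ± 122 CPM in cashmere goats and 463 ± 106 CPM in milk goats (SD, n = 4 each; 0.60 ± 0.16 SE, edgeR adjusted p = 0.0719). PKP1, the plakophilin of the upper epidermis, stood at 0.51 ± 0.17 and PKP2, of simple epithelia and heart, at 0.52 ± 0.19 (adjusted p = 0.121 and 0.138). PKP3, found in most epithelial layers, stood at 0.12 and PERP, a tetraspan protein of desmosomes, at 0.14. DSP, desmoplakin, the link to keratin, averaged 8618 ± 1280 CPM in cashmere goats and 8801 ± 3317 CPM in milk goats, a difference of 0.03 ± 0.32. PKP4 (-0.31), and the cornified envelope plakins PPL, periplakin (-0.25), and EVPL, envoplakin (-0.41), had negative values.

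**Figure D5:**
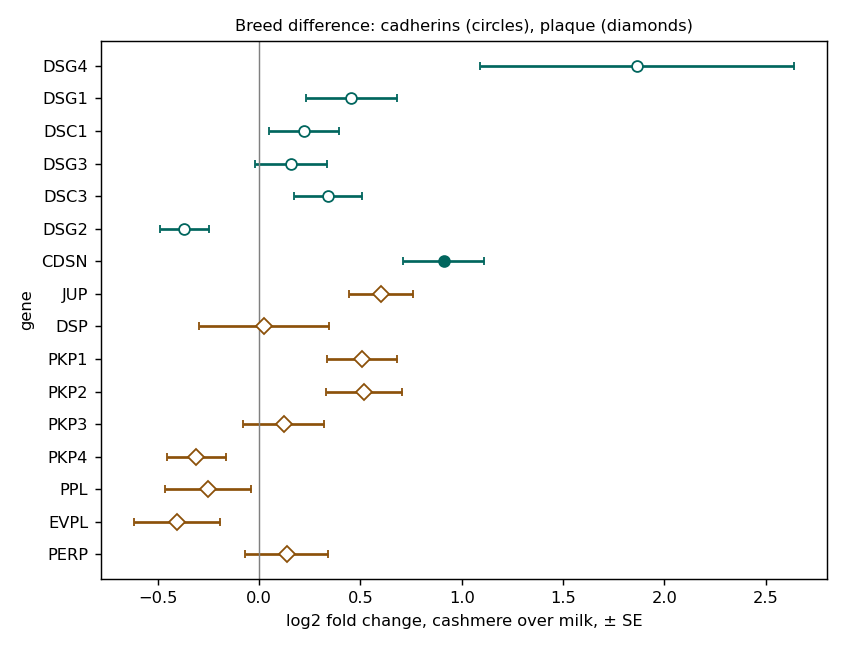
Log2 fold change of cashmere over milk goats with its SE from the edgeR fit, for the 7 members (circles) and the 9 plaque genes (diamonds); a filled symbol has an adjusted p under 0.05. CDSN at 0.91 is the only filled one, and DSG4 at 1.87 has the widest bar (SE 0.78).

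Over the 8 libraries PKP1 and PKP2 had an r of 0.910 and 0.886 with DSG4, and EVPL and PKP4 -0.386 and -0.317. The order turned on 1 library: without the month 12 milk library PKP3 stood at 0.965, against 0.403 with it, PKP2 at 0.922, JUP at 0.900, PKP1 at 0.770, EVPL at -0.095 and PKP4 at -0.032. PKP1 itself spanned 183 to 359 CPM, so that the ratio of DSG4 to PKP1 in FPKM moved 23.5-fold and that of DSG4 to JUP 26.3-fold over the libraries. The cadherins and catenins of adherens junctions, the other adhesive junction of keratinocytes, were all found: 5 of 6 had positive breed values (median 0.43) and none passed. CDH1, E-cadherin, stood at 0.48 ± 0.15 (edgeR adjusted p = 0.107) and CTNNB1, beta-catenin, at 0.46 ± 0.18 (adjusted p = 0.163). Among markers of other cells, 6 of 6 dermal fibroblast genes summed to 2305 to 33333 CPM in cashmere goats and 2251 to 19231 CPM in milk goats. The 3 of 3 immune genes summed to 32.5 to 37.1 and 22.0 to 51.9 CPM. The r of the fibroblast sum was 0.208 with DSG4 and -0.496 to 0.395 with the other members, and without the month 12 milk library -0.437 with DSG4 and -0.853 to 0.334 with the others.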

How the data were processed

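Skin RNA of 8 goat libraries was sequenced after polyadenylated selection and directional paired-end preparation, per the labels' protocols, which speak of embryos in one sentence; the labels do not resolve this. Bowtie2 is named in the submitters' processing notes; no source used here states its role, the genome build or the counting rules. The authors deposited raw read counts per gene in 2 tables and FPKM in another. Column names that use a transliterated word for cashmere were read as cashmere goats.

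From the deposited counts of the first table, genes were filtered with filterByExpr, scaled by TMM and tested with edgeR 4.0.16 (R 4.3.3) in a quasi-likelihood model of month and breed (3 residual degrees of freedom), with Benjamini-Hochberg adjustment over all genes and a threshold of 0.05. Month is the block of the breed comparison. Log2 CPM used a prior count of 2. SEs come from the fold change and its F. Alternatives used limma 3.58.1, DESeq2 1.42.0, other scalings, filters and the second table. Intervals cover counting error only, since each comes from the reads of 1 library against 1, and the reads carry no molecular identifiers. Likeness used genes with a name and a mean of at least 5 CPM; 5 genes are named for DSG4 and 3 for each other member. Of related lists up to 4 genes past the threshold are named, otherwise the 2 with the highest CPM, and the plaque list in full; any other gene, such as KRT1 and IVL, was named after its values were seen. Members and lists were chosen with earlier results of these data known. Correlations without the month 12 milk library, and KLK5 and KLK7 under the alternative settings, were added after seeing the data.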

Additional observations from a re-analysis of the deposited data

How the results depend on the processing

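Of 523 values of members under alternative settings, 485 kept their direction and their side of the threshold, 11 lost a call, 11 gained one and 16 changed sign; the lost calls are all CDSN between breeds. No sign change began from a call, and the cause of each change was not tested. Between breeds, DSG3 stood at -0.0356 and -0.0593 without the cashmere or the milk library of month 12, the range with 1 library left out being -0.0593 to 0.269. For month 9 against month 3, library totals gave -0.0445 for DSG1, -0.195 for DSC1 and -0.00803 for DSC3, and log2 FPKM gave DSC1 -0.126 (pseudocount 1) and -0.128 (0.1). For month 12 against month 6, DSG1 stood at -0.0287 and -0.0301 with these FPKM settings, and at -0.145 and -0.334 when the cashmere library of month 6 or 12 was left out. When the milk library of month 6 or 12 was left out, DSG2 stood at 0.0215 and 0.0578, DSC1 at 0.159 and 0.127, and CDSN at 0.209 without that of month 12. With 1 library left out the values of this comparison ran over -0.334 to 0.482 for DSG1, -0.176 to 0.0578 for DSG2, -0.214 to 0.159 for DSC1 and -0.548 to 0.209 for CDSN. Counts of called genes moved as well. The 675 genes of the breed comparison became 1712 with DESeq2, 1191 with limma on log2(FPKM + 1), 1117 in the second table and 346 without the month as replicate block, and 0 to 869 with 1 library left out. The 0 genes of the month test became 536 with DESeq2 and 0 to 1180 with 1 library left out, those of month 9 against month 3 1107 and 0 to 2027, and those of month 12 against month 6 94 and 0 to 452. For breed by season, 17 genes passed with library totals, 118 with no filter and 79 with DESeq2. The split of breed calls moved from 207 higher and 468 lower to 302 and 317 with library totals and 870 and 321 with limma on log2(FPKM + 1). The mean log2 breed difference of DSG4 over months was 2.06 in CPM, 2.27 in FPKM and 2.02 in the second table. With 1 library a month and breed, no comparison within a month could be tested.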
